A study of Mus musculus with 4 samples.

Results

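The proteasome is the protease that degrades ubiquitin-tagged proteins in the cytosol and nucleus. The genes described here encode its standard subunits, those present in most cells as opposed to the immunoproteasome, and 3 chaperones of its assembly that share the subunits' gene names (Psmd5, Psmd9 and Psmd10). They are called subunit genes together, after those names. They were taken from the deposited table as the protein-coding genes named Psma, Psmb, Psmc or Psmd plus a number, without the immunoproteasome genes Psmb8, Psmb9 and Psmb10, and with an FPKM (fragments scaled by gene length and by library size) of at least 1 in 2 or more libraries. Of 36 such genes, 34 reached that limit, out of 35275 genes listed and 13147 that reached the same limit. The other two were Psma8, an alpha subunit of the testis (0.559 and 0.245 FPKM in the knockout libraries, 0.136 and 0.223 in the wild-type libraries), and Psmb11, the beta subunit of the thymus, which was listed at 0 in all 4 libraries. The 34 genes lie on 15 chromosomes.

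The libraries came from lung tumours of Balb/c mice with both Nrf2 alleles disrupted (Nrf2 -/-, KO 1 and KO 2) and of wild-type Balb/c mice (Nrf2 +/+, WT 1 and WT 2). All mice of both genotypes had received the carcinogen vinyl carbamate at 16 mg/kg, in 2 or 4 doses, and tumours were taken after 40 to 44 weeks. The series describes 2 mice of each genotype, and each sample pooled 3 to 4 tumours. Doses, weeks and tumour numbers are not given sample by sample, nor is the way the Nrf2 alleles were disrupted. The genotype is given for the mouse and not for a cell type. Nrf2 was not measured separately in tumour cells, immune cells and stroma.

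At the core of the proteasome is the 20S particle, a barrel whose outer rings are built of alpha subunits (Psma genes) and whose inner rings are built of beta subunits (Psmb genes), among them the catalytic subunits. The 19S regulatory particle caps the barrel. Its base unfolds substrates with a ring of ATPases (Psmc genes), and its lid removes ubiquitin chains. The transcription factor NRF2, encoded by Nfe2l2, raises subunit transcripts in mouse cells treated with electrophiles, acting through antioxidant response elements, and the related factor NRF1, encoded by Nfe2l1, raises them when proteasome activity falls.

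Library totals recovered from the values were 17975646 and 16892588 reads in KO 1 and KO 2, against 21659572 and 21220307 reads in WT 1 and WT 2. Nfe2l2 stood at 3.66 and 2.96 FPKM in the knockout libraries, against 96.3 and 87.9 FPKM in the wild-type libraries (log2 fold change -4.44 ± 0.13, SE; limma adjusted p = 0.000378). The lung markers Sftpc (76030 to 90470 and 75160 to 77720 FPKM in knockout and wild-type libraries), Sftpb, Nkx2-1, Epcam and Lamp3 were present in every library. Correlations of log2(FPKM + 1) between libraries across genes lay between 0.9736 and 0.9899. Reads behind the 34 subunit genes ran from at least 136 (Psmd9 in KO 1) to at least 4123 (Psmd2 in WT 1). Since reads can be lower bounds, the gene with the largest counting error cannot be named.

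Because NRF2 acts through antioxidant response elements, the promoters of the subunit genes were searched for the core letters TGACNNNGC, on both strands, from 250 bases before to 50 bases after the start site (RefSeq, GRCm38.p6). Windows were matched for 28 of the 34 genes. The letters occurred in 5 of them (17.9%): Psmb5, Psmb6, Psmc6, Psmd9 and Psmd12. Of 10071 tested genes with a window, 17.2% held them, as did 12.4% of all 32851 windows in the table. The share among subunit genes was thus close to that among tested genes. The whole windows of the catalytic subunits Psmb5 (chr14:54617946-54618245, minus strand) and Psmb6 (chr11:70525107-70525406, plus strand) are shown since their protein products carry out the cleavage and both hold a match, in capitals, within 50 bases of the start site. In Psmb5 the capitals begin with TGACGT, letters shared with a cyclic AMP response element.
Psmb5: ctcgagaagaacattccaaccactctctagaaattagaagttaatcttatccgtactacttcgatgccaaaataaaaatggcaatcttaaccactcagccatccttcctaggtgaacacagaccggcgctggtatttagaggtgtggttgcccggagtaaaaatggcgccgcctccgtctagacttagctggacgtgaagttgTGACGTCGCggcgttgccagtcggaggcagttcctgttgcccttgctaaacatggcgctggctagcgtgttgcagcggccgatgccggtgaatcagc
Psmb6: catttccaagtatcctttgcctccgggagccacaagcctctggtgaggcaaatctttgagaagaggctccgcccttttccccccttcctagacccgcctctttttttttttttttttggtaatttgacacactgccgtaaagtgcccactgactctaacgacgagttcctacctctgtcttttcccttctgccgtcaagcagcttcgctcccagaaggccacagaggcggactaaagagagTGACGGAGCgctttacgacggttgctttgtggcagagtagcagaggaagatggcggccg
For the other three genes, the match is shown in capitals with its flanks. The matches of Psmc6 and Psmd12 read TGACNNNGC on the opposite strand and begin at positions -227 and -247 from the start site, and that of Psmd9 begins at position -31.
Psmc6: agccagtaGCTAAGTCAggcattgc
Psmd12: tctGCTGTGTCAcatttgcc
Psmd9: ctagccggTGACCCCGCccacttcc

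In tumours lacking Nrf2, no subunit gene passed the test. All 14 genes of the 20S core had positive log2 fold changes, 6 of which were negative once a trend on transcript length was removed. Of the 34 genes, 0 were called at a limma adjusted p under 0.05, against 0.114% of all 13147 tested genes (0.0761% higher and 0.038% lower), and the smallest adjusted p was 0.309 (Psmd5). At an unadjusted p under 0.05, limma gave 1 of the 34 (the assembly chaperone gene Psmd5, lower), against 15.4% of tested genes (8.36% higher and 7.01% lower). The median log2 fold change over the 34 was 0.08 (a fold of 1.06), with a range from -0.26 to 0.25, beside -0.004 over all tested genes. It was 0.04 without WT 1 and 0.12 without WT 2. Both knockout libraries lay above both wild-type libraries for 14 genes and below them for 1, as they did for 22.7% and 25.4% of all tested genes (48.1% together). Of the 14, 10 belonged to the 20S core and 4 to the 19S particle. At this size the smallest two-sided p of an exact permutation test is 0.333, so the p-values come from limma's model across genes.

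**Figure D1:**
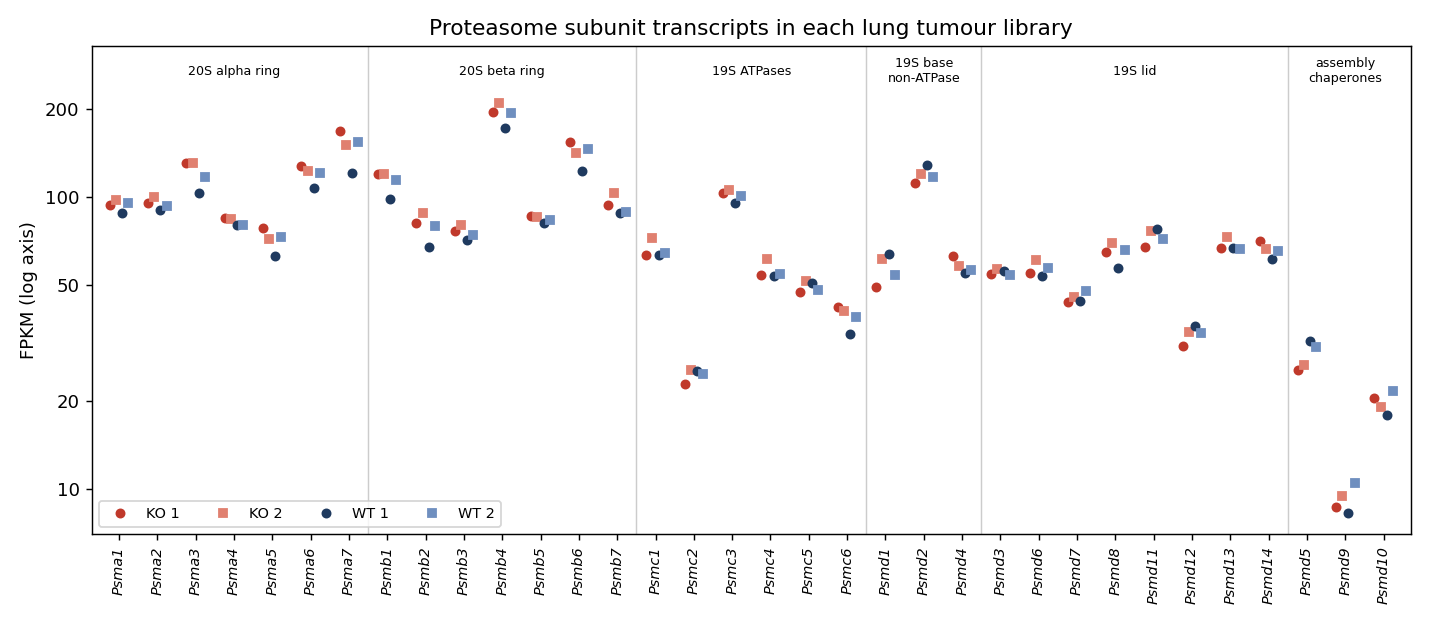
FPKM (log axis) of each of the 34 subunit genes in the 2 knockout and 2 wild-type libraries, grouped by part of the proteasome. Psmb4 is highest and Psmd9 lowest, and within a gene the 4 libraries lie close together, with WT 1 lowest for 23 genes.

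The alpha ring forms the gate of the barrel. Its 7 genes had log2 fold changes from 0.06 to 0.25, and the knockout libraries lay above the wild-type libraries for 4 of them (Psma2, Psma3, Psma4 and Psma6). Psma3 (chromosome 12, 70974621 to 70996347, plus strand; mm10) had the highest fold change of all 34 genes. It stood at 131 and 131 FPKM in the knockout libraries, against 103 and 117 FPKM in the wild-type libraries. The log2 fold change was 0.25 ± 0.11 (SE; limma adjusted p = 0.366), so the call was not reached although the groups did not overlap. Psma7 (chromosome 2, 180036374 to 180042433, minus strand) stood at 169 and 151 FPKM in the knockout libraries, against 121 and 155 FPKM in the wild-type libraries, so that WT 1 was low and the other three libraries were close (log2 fold change 0.22 ± 0.15, SE). Psma5 and Psma6 had the same low library, with 78.6 and 71.9 FPKM in KO 1 and KO 2, 73.1 in WT 2 and 63.0 in WT 1 for Psma5, and with 127 and 123 FPKM in KO 1 and KO 2, 121 in WT 2 and 108 in WT 1 for Psma6. At the other end Psma1 stood at 93.9 and 97.5 FPKM in the knockout libraries and 88.3 and 95.2 FPKM in wild-type, which overlapped (log2 fold change 0.06). Psma4 varied least within the groups, at 84.4 ± 0.394 FPKM in knockout and 80.1 ± 0.0237 FPKM in wild-type tumours (SD, n = 2 each). Psma2 averaged 97.6 ± 3.08 and 91.9 ± 2.10 FPKM in knockout and wild-type tumours.

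The beta ring holds the proteolytic sites. The 7 genes had log2 fold changes from 0.05 to 0.20, and the knockout libraries lay above the wild-type libraries for all but Psmb6. Psmb5 (chromosome 14, 54614119 to 54618022, minus strand) encodes the subunit with chymotrypsin-like activity, the one bound by the drug bortezomib. It stood at 85.8 and 85.3 FPKM in the knockout libraries, against 81.6 and 83.3 FPKM in the wild-type libraries, the smallest fold change of the ring (log2 0.05 ± 0.10, SE; 95% interval -0.19 to 0.29). Psmb6 (chromosome 11, 70525367 to 70527858, plus strand), with caspase-like activity, stood at 154 and 142 FPKM in the knockout libraries, against 123 and 147 FPKM in the wild-type libraries, which overlapped. Psmb7 (chromosome 2, 38588036 to 38644087, minus strand), with trypsin-like activity, stood at 93.8 and 103 FPKM in the knockout libraries, against 88.01 and 89.1 FPKM in the wild-type libraries. None of these catalytic subunits had a lower mean in the knockout libraries, and limma's adjusted p was 0.841, 0.65 and 0.542 for Psmb5, Psmb6 and Psmb7.

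Among the structural beta subunits, Psmb2 (chromosome 4, 126677630 to 126709714, plus strand) had the highest fold change, at 81.2 and 88.2 FPKM in the knockout libraries, against 67.5 and 79.8 FPKM in the wild-type libraries (log2 0.20 ± 0.12, SE; limma adjusted p = 0.482). Psmb4 (chromosome 3, 94884093 to 94886961, minus strand) had the highest level of all 34 genes in both genotypes, at 196 and 210 FPKM in the knockout libraries and 173 and 195 FPKM in the wild-type libraries. KO 1 and WT 2 were nearly level, and KO 2 and WT 1 lay at the ends. Psmb1 averaged 120 ± 0.216 FPKM in knockout and 106 ± 11.2 FPKM in wild-type tumours, and Psmb3 78.5 ± 2.38 FPKM in knockout and 72.6 ± 2.02 FPKM in wild-type tumours (SD, n = 2 each). Over the 14 genes of the 20S core, the median log2 fold change was 0.14, with 0.06 when WT 1 was left out and 0.22 when WT 2 was. The lowest bound of any of their 95% intervals was -0.19, a fold of 0.87, and the highest 0.59, a fold of 1.51. WT 1 was the lowest library for 13 of the 14, and a knockout library the highest for all 14 (KO 1 for 8 and KO 2 for 6).

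**Figure D2:**
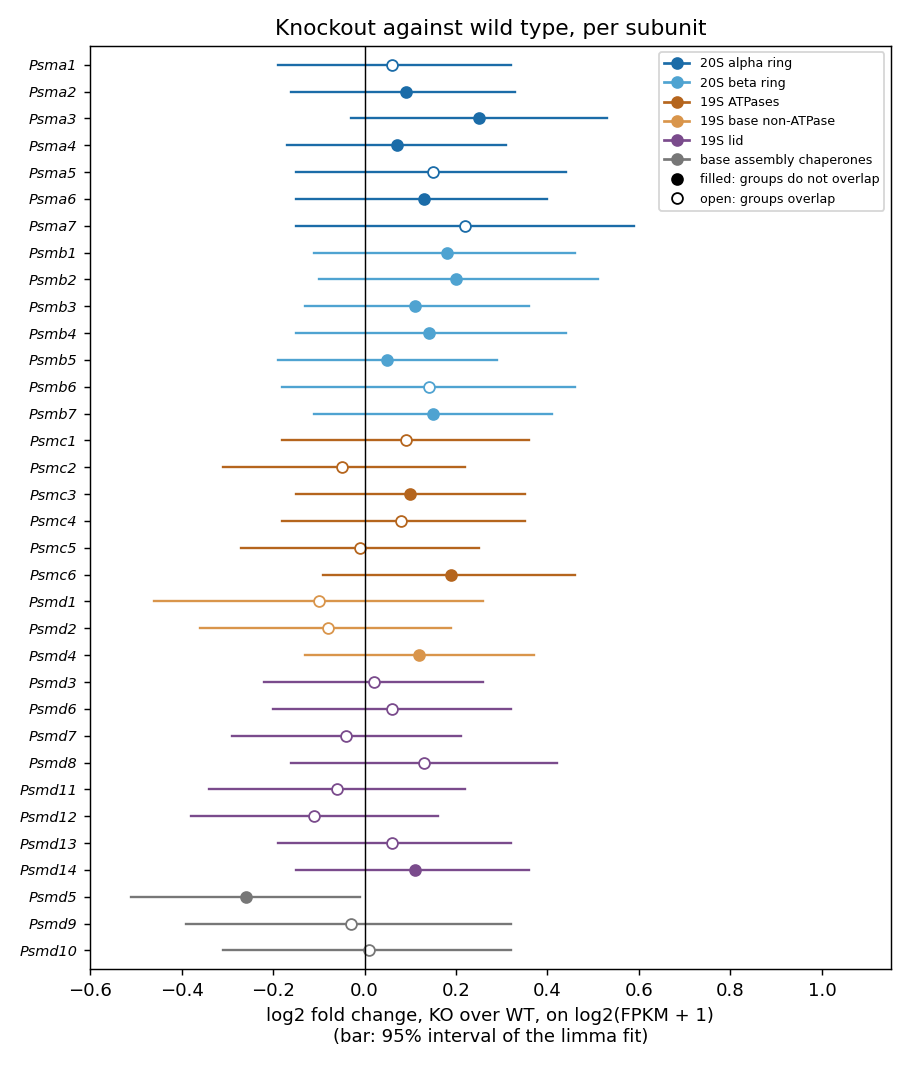
Log2 fold change, knockout over wild type, on log2(FPKM + 1), for each subunit gene (point) with its 95% interval from limma (bar), coloured by part of the proteasome. All 14 genes of the 20S core lie between 0.05 and 0.25, the 19S genes on both sides of 0, and Psmd5 lowest at -0.26.

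Genes of the 19S particle went both ways. The 6 ATPases, which thread substrates into the core, had a median log2 fold change of 0.09, with 4 positive and 2 negative values. Psmc6 (chromosome 14, 45329788 to 45349705, plus strand) was the highest of them, at 42.2 and 40.7 FPKM in the knockout libraries, against 33.9 and 38.8 FPKM in the wild-type libraries (log2 0.19 ± 0.11, SE; limma adjusted p = 0.478). Psmc2 was the lowest, at 22.8 and 25.6 FPKM in the knockout libraries and 25.3 and 24.7 FPKM in the wild-type libraries, which overlapped. Psmc3 was the only other ATPase gene with groups that did not overlap, at 104 and 105 FPKM in the knockout libraries and 95.1 and 101 FPKM in the wild-type libraries. Psmc1, Psmc4 and Psmc5 averaged 68.0, 57.6 and 49.2 FPKM in knockout tumours, against 63.7, 54.2 and 49.5 FPKM in wild-type tumours, all with overlapping groups.

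The base also holds the scaffold subunits Psmd1 and Psmd2 and the ubiquitin receptor Psmd4. Psmd1 (chromosome 1, 86064387 to 86139151, plus strand) stood at 49.0 and 61.2 FPKM in the knockout libraries, against 63.6 and 54.2 FPKM in the wild-type libraries (log2 -0.10 ± 0.15, SE). KO 1 and WT 1, the extremes, lay apart while KO 2 and WT 2 lay between them in the opposite order. Psmd2 had the same order, at 112 and 120 FPKM in the knockout libraries and 129 and 117 FPKM in the wild-type libraries. Psmd4 (chromosome 3, 95032694 to 95042614, minus strand) did not overlap, at 62.6 and 58.3 FPKM in the knockout libraries against 54.7 and 56.2 FPKM in the wild-type libraries (log2 0.12 ± 0.10, SE; limma adjusted p = 0.608).

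The 8 lid genes had log2 fold changes from -0.11 to 0.13 and a median of 0.04. Psmd14 (chromosome 2, 61711694 to 61800376, plus strand), which encodes the deubiquitinase of the lid, was the only one with groups that did not overlap, at 70.6 and 66.2 FPKM in the knockout libraries, against 61.6 and 65.5 FPKM in the wild-type libraries. Psmd8 had the highest fold change of the lid, at 64.7 and 69.7 FPKM in the knockout libraries and 56.9 and 66.1 FPKM in the wild-type libraries. Psmd12 (chromosome 11, 107479484 to 107504362, plus strand) had the lowest, at 30.8 and 34.4 FPKM in the knockout libraries and 36.3 and 34.2 FPKM in the wild-type libraries (log2 -0.11 ± 0.11, SE). The other lid genes Psmd3, Psmd6, Psmd7, Psmd11 and Psmd13 averaged 55.6, 57.9, 44.6, 71.8 and 69.9 FPKM in knockout tumours, against 54.9, 55.4, 45.8, 74.8 and 66.8 FPKM in wild-type tumours.

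Psmd5, Psmd9 and Psmd10 encode chaperones that help the base assemble and leave before the particle is complete. They were the subunit list's lowest genes in level apart from Psmc2, at 26.04, 9.06 and 19.8 FPKM in knockout tumours and 31.4, 9.35 and 19.8 FPKM in wild-type tumours. Psmd5 (chromosome 2, 34849734 to 34874968, minus strand) was the only gene with both knockout libraries below both wild-type libraries, at 25.6 and 26.5 FPKM in knockout, against 32.1 and 30.6 FPKM in wild-type libraries. Its log2 fold change was -0.26 ± 0.10 (SE; 95% interval -0.51 to -0.01), with a limma unadjusted p = 0.0425 and adjusted p = 0.309. Psmd9 stood at 8.68 and 9.44 FPKM in the knockout libraries and 8.26 and 10.4 FPKM in wild-type, and Psmd10 at 20.4 and 19.1 FPKM in knockout, against 17.8 and 21.7 FPKM in wild-type libraries, so in both the wild-type libraries enclosed the knockout libraries.

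Within a library, levels differed far more between subunits than between genotypes. FPKM is scaled by gene length, so levels of different genes were set side by side. An annotated length accounted for the values of only 5496 of 21601 genes above 0, so comparisons between genes are rough. The median level of the 14 genes of the 20S core was 94.6 and 102 FPKM in KO 1 and KO 2, against 89.3 and 94.3 FPKM in WT 1 and WT 2. That of the 17 genes of the 19S particle was 54.9 and 61.2 FPKM in KO 1 and KO 2, against 55.9 and 56.2 FPKM in WT 1 and WT 2. The ranks of the top 3 genes by mean level were the same in both genotypes (Psmb4, Psma7 and Psmb6), as were those of the bottom 8, from Psmc5 down to Psmd9.

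The libraries did not move as 2 clean groups. Set against the 4-library mean, the median log2 level of the 20S core was 0.04 in KO 1 and 0.07 in KO 2, against -0.15 in WT 1 and 0.02 in WT 2. That of the 19S particle was -0.04 and 0.06 in KO 1 and KO 2, against -0.04 and -0.03 in WT 1 and WT 2. The excess of the core over the 19S particle on this scale was 0.09 and 0.01 in the knockout libraries and -0.12 and 0.04 in the wild-type libraries. These values overlap between genotypes, so a difference between core and 19S particle in their response was not larger than the spread between libraries. With KO 2 set against WT 2 alone, a comparison chosen after seeing the data and without a test, the median log2 difference was 0.07 for both the core (11 of 14 genes higher in KO 2) and the 19S particle (16 of 17), beside 0.00 over all tested genes (50.2% higher).

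**Figure D3:**
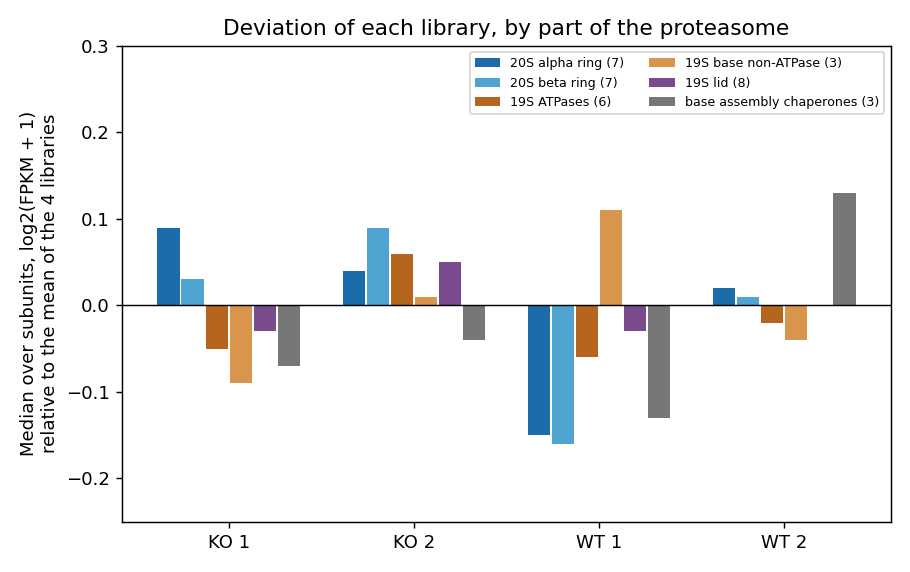
Median over the genes of each part of the proteasome of log2(FPKM + 1), as a difference from the 4-library mean, for each library. The bars of the alpha and beta rings stand between 0.03 and 0.09 in KO 1 and KO 2, at 0.02 and 0.01 in WT 2, and at -0.15 and -0.16 in WT 1.

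Transcript length moved with these differences. Across all tested genes, short transcripts had positive and long transcripts negative log2 fold changes. The median was 0.19 over 1514 genes under 1000 bases and -0.19 over 1671 genes of 5000 bases or more (lengths are medians of the annotated coding transcripts). Those of under 1000 bases deviated by 0.13 and 0.06 in KO 1 and KO 2 and by -0.18 and 0.01 in WT 1 and WT 2, so KO 1 and WT 1 were the extremes there too. Subunit genes are short, with a median of 1468 bases against 2570 over tested genes. The core genes, with a median of 1120 bases, were shorter than the 19S genes, with 1591, and Psmd5 was the longest of the 34, at 4397. Over the 34 genes, the correlation of log2 fold change with log2 length was -0.60 (Pearson) and -0.49 (Spearman), as a description over genes that share the same 4 libraries, and over 13085 tested genes -0.34 and -0.41.

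Among genes under 1000 bases, both knockout libraries lay above both wild-type libraries for 43.9% of all tested genes and for 4 of 5 subunit genes. From 1000 to under 1500 bases the share was 32.9% of tested genes and 4 of 12 subunit genes, and from 1500 to under 2000 bases 27.5% and 4 of 9. When a smooth trend on length was removed from each library, an analysis added after seeing the data, the median log2 fold change over the 34 genes was -0.01 and that of the core 0.05. Positive values then held for 16 of 34 genes, against 50.5% of all tested genes under the same removal. Both knockout libraries then lay above both wild-type libraries for 5 of the 34, against 23.7% of tested genes. Psmb5 was then at -0.12 and Psmb6 at -0.03, Psma3 at 0.21, Psmc6 at 0.18 and Psmd5 at -0.17, with 0 of the 34 called by limma (smallest adjusted p = 0.382) and 0 at an unadjusted p under 0.05.

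**Figure D4:**
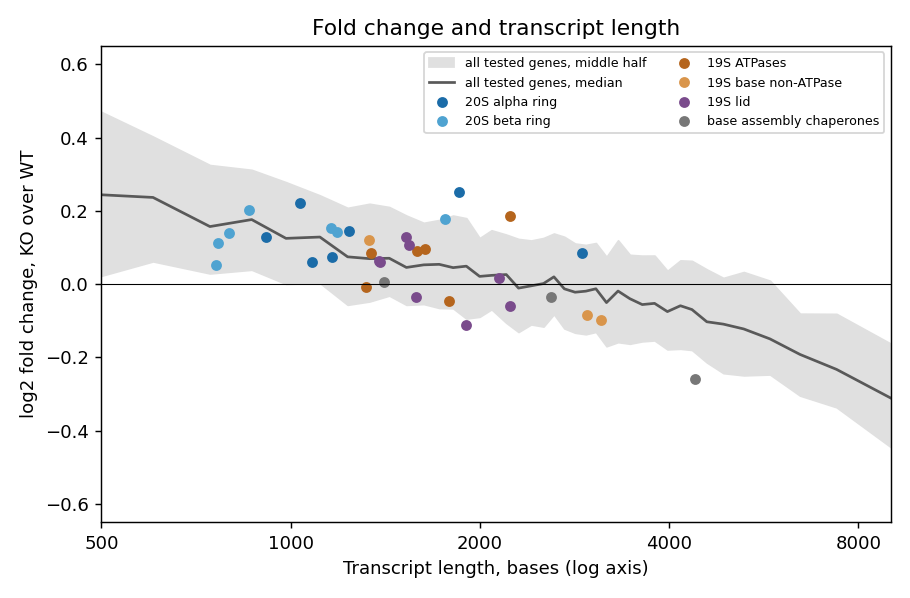
Log2 fold change, knockout over wild type, against transcript length (log axis) for the subunit genes (coloured points) and for all tested genes (grey line, running median; grey band, between the quartiles). Most subunit genes lie inside the band, which itself falls with length, with a median of 0.19 under 1000 bases and -0.19 from 5000 bases up.

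The promoter match did not mark a shared direction. The 5 genes with TGACNNNGC had log2 fold changes of 0.05 (Psmb5), 0.14 (Psmb6), 0.19 (Psmc6), -0.03 (Psmd9) and -0.11 (Psmd12), within the range of the other subunit genes. With TGAGNNNGC admitted as well, 14 of the 28 genes held a match (50%), against 35.7% of tested genes with a window. A match of letters is a description of the sequence and not evidence of binding.

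Immunoproteasome subunits replace the catalytic subunits in immune cells and under interferon, so the balance within each catalytic pair was compared. Psmb5 stood at 2.75 and 2.76 times the level of Psmb8 in the knockout libraries, against 3.90 and 3.58 times in the wild-type libraries. Psmb6 stood at 7.03 and 6.27 times the level of Psmb9 in the knockout libraries, against 7.83 and 9.35 times in the wild-type libraries. Neither pair overlapped between genotypes, and the ratios were 0.739 and 0.775 times as high in knockout as in wild-type tumours. For single genes, the groups did not overlap for 48.1% of all tested genes, and no such share was counted for ratios. Psmb7 over Psmb10 overlapped, at 2.86 and 3.06 in the knockout libraries and 3.07 and 2.78 in the wild-type libraries. Of the immunoproteasome subunits themselves, Psmb8 and Psmb9 had log2 fold changes of 0.47 ± 0.11 and 0.48 ± 0.10 (SE; limma adjusted p = 0.167 and 0.156, not called), while Psmb10 was at 0.13. Part of an exon of Psmb9 overlaps Tap1 on the other strand (212 of 3660 exon bases), and reads there cannot be told apart without strand.

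**Figure D5:**
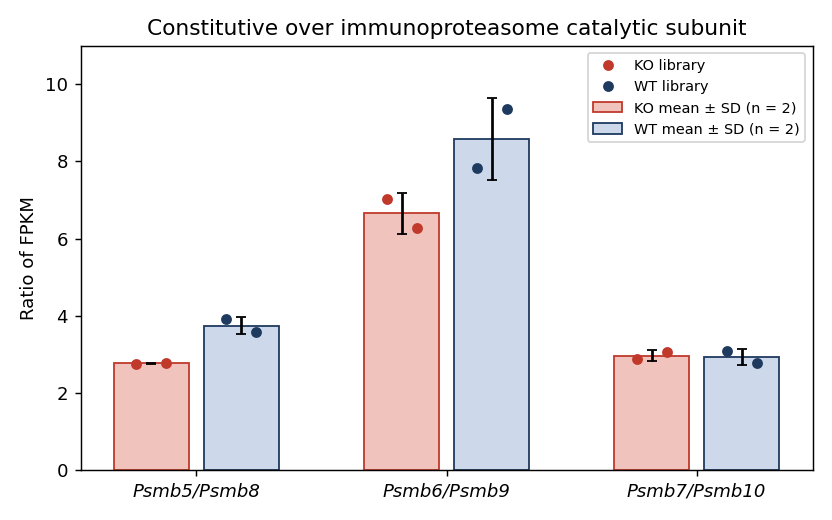
Ratio of FPKM of each constitutive catalytic subunit to its immunoproteasome counterpart, with points for libraries and bars for the mean ± SD (n = 2 each). Psmb5/Psmb8 and Psmb6/Psmb9 do not overlap between genotypes and are lower in knockout tumours, and Psmb7/Psmb10 overlaps. Single genes do not overlap for 48.1% of all tested genes.

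Marker levels of immune cells are given beside these ratios. The T cell markers Cd3e, Cd3d, Cd3g, Trbc2, Cd4 and Cd8a summed to 23.5 and 27.5 FPKM in the knockout libraries, against 11.4 and 9.57 FPKM in wild-type libraries, and 5 of 5 tested lay above in both knockout libraries, with 0 called (limma, smallest adjusted p = 0.0722; Cd8a was below the limit). Neutrophil markers summed to 96.2 and 111 FPKM in knockout, against 25.3 and 27.1 FPKM in wild-type libraries, with 5 of 5 above and 3 called (S100a8, S100a9 and Csf3r). Over all tested genes, both knockout libraries lay above both wild-type libraries for 22.7%, and 0.0761% were called higher. Macrophage markers summed to 143 and 128 FPKM in the knockout libraries and 162 and 140 FPKM in wild-type libraries, with Cd68 the largest part. Among them Marco stood at 3.78 and 1.34 FPKM in the knockout libraries, against 20.91 and 15.35 FPKM in wild-type libraries. It was not called (limma adjusted p = 0.0852), and the groups overlapped for the other 4 macrophage markers. The 5 markers of lung epithelium and type 2 cells were at -0.06 in their median log2 fold change. Among markers of other cells, red blood cell markers summed to 1194 and 1093 FPKM in knockout, against 247 and 490 FPKM in wild-type libraries, and dividing cell markers to 13.2 and 12.5 FPKM in knockout, against 17.1 and 12.6 FPKM in wild-type libraries. Summed levels in the knockout libraries, against the wild-type libraries, were 28.6 and 21.6 against 18.1 and 21.2 FPKM for B cells, 73.4 and 123 against 91.8 and 44.0 FPKM for endothelium, 324 and 530 against 330.1 and 224 FPKM for fibroblasts, 2125 and 3195 against 1802 and 784 FPKM for club cells, and 2.88 and 4.32 against 2.76 and 1.74 FPKM for ciliated cells. The part of these cells in the ratios was not tested, and in bulk tumours fewer cells of a type and less RNA per cell cannot be told apart.

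Partners of the proteasome were not called either. Of the activators and the inhibitor (Psme1 to Psme4 and Psmf1), 0 of 5 were called and the median log2 fold change was -0.02. Psme2, a subunit of the interferon-inducible activator, was highest, at 187 and 165 FPKM in the knockout libraries against 148 and 158 FPKM in wild-type libraries, and Psme4, a nuclear activator with a transcript of 6491 bases, was lowest, at 40.1 and 52.1 FPKM in knockout, against 58.4 and 47.8 FPKM in wild-type libraries. Among 6 assembly factors, 0 were called. Psmg4, a chaperone of the alpha ring with a transcript of 514 bases, was at 37.1 and 32.2 FPKM in the knockout libraries, against 18.7 and 26.8 FPKM in the wild-type libraries (log2 0.61 ± 0.18, SE; limma adjusted p = 0.234). Pomp, which matures the core, had no overlap either, at 109 and 113 FPKM in knockout, against 91.5 and 102 FPKM in wild-type libraries. Ecpas, which encodes a proteasome-binding scaffold and has a transcript of 4946 bases, was lowest, at 32.7 and 34.8 FPKM in knockout, against 47.2 and 37.95 FPKM in wild-type libraries.

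Of 13 other subunits and partners, 0 were called, with a median log2 fold change of -0.05. That median was 0.03 without KO 1 or without WT 1, and -0.14 without KO 2 or without WT 2. Sem1, the smallest lid subunit, was highest at 73.2 and 59.4 FPKM in the knockout libraries against 48.2 and 52.5 FPKM in the wild-type libraries (log2 0.38 ± 0.13, SE; limma adjusted p = 0.271). Ubqln2 and Ubqln4, shuttle factors, were lowest at -0.21 each, and the ubiquitin receptor Adrm1 was at -0.05. Of 6 genes for ubiquitin and its activation, 0 were called. Ubb, which encodes polyubiquitin, stood at 941 and 1039 FPKM in the knockout libraries against 745 and 818 FPKM in wild-type libraries, which did not overlap. Rps27a, a ubiquitin fusion, had the highest log2 fold change of the list (0.50), and Uba6, an activating enzyme, the lowest (-0.61 ± 0.14, SE; limma adjusted p = 0.173), at 3.25 and 3.49 FPKM in knockout, against 6.18 and 5.15 FPKM in wild-type libraries. Rps27a has processed copies in the genome, so reads shared with those copies leave its value uncertain.

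Genes that control proteasome transcription were not called. Nfe2l1 stood at 113 and 115 FPKM in the knockout libraries, against 117 and 110 FPKM in the wild-type libraries (log2 0.01 ± 0.10, SE). Of 9 tested genes of that list 0 were called, with Mafk highest at 0.05 and Ddi2, the protease that activates NRF1, lowest at -0.31 (14.6 and 16.98 FPKM in knockout, against 21.7 and 17.9 FPKM in wild-type libraries). The 8 subunits of the cytosolic chaperonin, another constitutive complex, had 0 called and log2 fold changes from -0.18 to -0.02. Both knockout libraries lay below both wild-type libraries for 5 of the 8, and for 25.4% of all tested genes. Cct2 was at 77.9 and 80.7 FPKM in the knockout libraries against 88.6 and 90.9 FPKM in the wild-type libraries. The median length of the chaperonin transcripts was 1892 bases, and with the length trend removed the median log2 fold change was -0.16, against -0.09.

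Known NRF2 targets were set beside the subunits in the same libraries. The list held 15 genes, of which Nqo1 was below the limit, at 0.537 and 0.343 FPKM in the knockout libraries, against 0.654 and 0.364 FPKM in wild-type libraries. Of the 14 tested genes 3 fell by limma, the glutathione transferases Gsta3 and Gstm1 and the glutathione peroxidase Gpx2. Gsta3 stood at 2.35 and 3.38 FPKM in the knockout libraries, against 20.6 and 22.0 FPKM in the wild-type libraries (log2 -2.54 ± 0.16, SE; limma adjusted p = 0.0108). Gstm1 was at -1.95 and Gpx2 at -2.16 on the same scale (limma adjusted p = 0.024 and 0.0108). Both knockout libraries lay below both wild-type libraries for 9 of the 14 targets, 1 of the 34 subunit genes and 25.4% of all tested genes. The groups overlapped for the other 5 targets (Gclm, Hmox1, Me1, Taldo1 and Tkt). The difference between the lists was not tested. All 3 calls were lost when no filter on low values was used. The median log2 fold change of the targets was -0.38 (-0.22 with a pseudocount of 10), and Me1, the malic enzyme, was highest at 0.14.

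Exons of Psmb7, Psmc3 and Psmd13 overlap genes expressed from the other strand (Nek6, Slc39a13 and Sirt3) over 405, 215 and 342 bases, and reads there cannot be told apart without strand. The 4 named proteasome pseudogenes in the table were listed at 0 in all libraries.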

How the data were processed

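RNA of lung tumours from 2 Nrf2 knockout and 2 wild-type samples was sequenced. The deposited values are FPKM per gene made by the authors, as the values show: among genes with 1 annotated transcript, value times length falls on multiples of 1 constant per library, which gave the library totals. An annotated length gave whole reads in all 4 libraries for 5496 of 21601 genes above 0 (tolerance 0.0005 reads plus rounding). For the others, up to 21600, the smallest length that made reads whole was used, so their reads are whole by construction and lower bounds. Per the submitters' processing notes, TopHat2, DESeq2 and the mm10 build were involved, with neither role nor version stated. How reads were counted, on which annotation and strand, was not given in the sources used here. Names, coordinates and lengths are from GENCODE M21 (GRCm38), which matched 34490 of 35275 identifiers.

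The genotypes were compared by limma (version 3.58.1, R 4.3.3). It was fitted to log2(FPKM + 1) with a trended prior for the 13147 genes at or above 1 FPKM in 2 or more libraries. P-values were Benjamini-Hochberg adjusted over all of them, and calls needed an adjusted value under 0.05. Fold changes on log2(FPKM + 1) understate those of low genes. Residual degrees of freedom were 2, and the prior added 4.12. The fit was tested on simulated data with planted changes far larger than those of the subunit genes. That test does not show whether changes as small as theirs would be found. P-values measure the spread between these samples. The subunit genes and all lists were chosen with earlier results of these data known. Values per library are given for the catalytic subunits, the 3 highest and 3 lowest fold changes, the extremes of each part and the extremes in level, and others were added after their values were seen. Other lists are given by their counts, any called gene and their highest and lowest gene. Paaf1 was not analysed here. Alternatives were quantile and median-of-ratios scaling, no trend, other filters (none, or 5), pseudocounts of 0.1 and 10, the replicate block, each library left out, and an adjusted p under 0.1. Chosen after seeing the data were limma-voom on recovered reads, removal of a length trend (lowess, span 0.3), crossed replicate numbers and KO 2 against WT 2 alone.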

Additional observations from a re-analysis of the deposited data

How the results depend on the processing

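No subunit gene was called under any alternative. The count of all genes called was 15. It was 1 with no filter (0 of the NRF2 targets, against 3), 69 with the replicate block, 65 at an adjusted p under 0.1, 8 with limma-voom, 11 with the length trend removed and 10 to 221 with a library left out. The replicate numbers did not pair the samples: deviations of same-numbered libraries from their group means correlated at -0.306. Crossing the numbers gave 848 calls among the 13147 tested genes. These held 0 of the 34 subunit genes, 2 of the 3 immunoproteasome genes, 1 of 6 assembly factors, 1 of 6 ubiquitin genes and 6 of 14 NRF2 targets. The replicate block left 0 subunit genes called. At an unadjusted p under 0.05, limma gave 1 subunit gene in the main fit, beside 15.4% of all tested genes. The subunit count was 0 with quantile scaling, without the trend and with the replicate block. It was 1 with median-of-ratios scaling, other filters and other pseudocounts, and 2 with crossed numbers. The share over all tested genes at this limit was counted for the main fit only, so nothing is read from the other counts. With a library left out, subunit genes not overlapping numbered 20 to 29 (15 with all 4 libraries), as 3 libraries overlap less by construction. The share over all tested genes was not counted for 3 libraries, so nothing is read from these counts. Median log2 fold changes with a library left out ran from -0.01 to 0.06 for the 19S particle and -0.01 to 0.13 for the ATPases. They were -0.15 to 0.06 for Psmd1, Psmd2 and Psmd4, -0.01 to 0.05 for the lid and -0.19 to 0.12 for the assembly chaperones. They ran from -0.07 to -0.01 for the activators and inhibitor, 0.00 to 0.16 for the assembly factors, -0.14 to 0.03 for the other partners, -0.17 to -0.05 for the control genes, -0.18 to -0.06 for the ubiquitin genes and -0.16 to -0.08 for the chaperonin. Signs near 0 turned. The log2 fold change with a library left out ran from -0.00 to 0.19 for Psmc1, -0.13 to 0.03 for Psmc2, -0.01 to 0.17 for Psmc4, -0.07 to 0.05 for Psmc5, -0.25 to 0.06 for Psmd1, -0.01 to 0.04 for Psmd3, -0.01 to 0.13 for Psmd6, -0.09 to 0.02 for Psmd7, -0.19 to 0.12 for Psmd9, -0.13 to 0.14 for Psmd10 and -0.15 to 0.03 for Psmd11. The 14 genes of the core stayed positive in each of these. Median-of-ratios scaling put Psmd10 at -0.01.

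With the length trend removed, medians were -0.01 for all 34 genes, 0.05 for the core, -0.01 for the 19S particle, 0.05 for the beta ring, 0.02 for the ATPases and -0.01 for the lid, and 9 genes turned negative: Psma1 (-0.05), Psma4 (-0.03), Psma6 (-0.01), Psmb3 (-0.06), Psmb5 (-0.12), Psmb6 (-0.03), Psmd6 (-0.01), Psmd13 (-0.01) and Psmd10 (-0.06). The log2 difference of the Psmb5/Psmb8 ratio was then -0.54 on log2(FPKM + 1), against -0.42 on that scale before removal. In KO 2 against WT 2 alone, the median was 0.03 for the alpha ring, 0.05 for Psmd1, Psmd2 and Psmd4, and -0.17 for the assembly chaperones. Admitting TGAGNNNGC gave 14 genes with a promoter match in place of 5. The cause of these shifts was not tested. Psmd9 had the lowest bound on reads, at least 136 in its lowest library, and its true read count is not known.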
